A study of Mus musculus with 12 samples.

Results

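Collagen chain genes were followed through regenerating mouse muscle. They were all the rows of the expression table whose symbol has the form of a collagen alpha chain (Col, a type number, a, a chain number), 44 of 28116 gene symbols. By type they were grouped as fibrillar (types I, II, III, V and XI, 9 genes), basement membrane (IV, XV and XVIII, 8 genes), microfibrillar (VI, 6 genes), FACIT (XII, XIV and XVI, 3 genes) and other (18 genes). The FACIT group is not the whole of that class, since FACIT collagens of other types, Col22a1 among them, were counted as other. Of the 44 genes, 36 reached 1 CPM (the sequencing unit that sets a gene's reads against the scaled size of its library) in at least 3 of the 12 libraries and were tested. These were 9 fibrillar, 7 basement membrane, 5 microfibrillar, 3 FACIT and 12 other genes.

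The libraries came from whole tibialis anterior muscle of mice of the strain C57BL/10ScSn-Dmdmdx/J, 4 months old. All 4 groups carried the mdx mutation, which removes functional dystrophin, and every muscle had received cardiotoxin, a venom protein that destroys fibres and so sets off regeneration. Scrambled day 3 and scrambled day 7 also received a scrambled control inhibitor, while anti-miR-106b day 3 and anti-miR-106b day 7 received an inhibitor of the microRNA miR-106b, with collection 3 or 7 days after injection. A sentence of the series' design text gives 5 days in place of 7, while every sample label says 3 or 7, and the labels were followed. Each group held 3 animals, and the labels do not say whether an animal gave muscles to more than 1 group. The level of miR-106b itself was not analysed here.

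Collagens are proteins of 3 alpha chains wound into a triple helix. Fibrillar collagens are secreted as procollagens, trimmed and crosslinked into the fibres that fill the space between muscle fibres. Type IV collagen forms the network of the basement membrane around each fibre and capillary, type VI collagen forms beaded filaments beside it, and FACIT collagens sit on the surface of fibrils. After muscle injury, fibroblasts and their progenitors lay down a transient collagen matrix, and in dystrophic muscle its persistence is known as fibrosis.

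The 12 libraries held 28857739 to 42825246 reads, and a read counted for 0.0213 to 0.0356 CPM. Mitochondrial genes took 7.54 to 7.76% of reads in scrambled day 3 and 4.80 to 4.83% in anti-miR-106b day 3. At day 7 they took 8.18 to 10.5% and 9.94 to 10.7%. In whole muscle, fewer cells of a type and less RNA per cell cannot be told apart. Muscle genes were abundant in every library: the summed level of 8 myofibre genes (Ckm, Acta1 and others) was 59186 to 182050 CPM. For the collagen genes 1 library stood apart: scrambled day 7 replicate 1 was the lowest of its group in 26 of 36 tested genes. The median standard deviation of a tested collagen gene in that group was 0.31 on the log2 scale, against 0.15 for all tested genes, while in the other groups it was 0.09 to 0.12. Results that rest on this library are given with and without it, a choice made after its values were seen. It was picked for its low collagen values, so the fits without it are a description and no separate support.

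The inhibitor's target is shown first, because its seed (bases 2 to 8, in capitals) is what pairs with messenger RNA. The mature sequence of miR-106b-5p lies at chr5:138165787-138165807 (minus strand, GRCm38.p6, RefSeq), and miR-17-5p, miR-20a-5p and miR-93-5p share its seed.
miR-106b-5p: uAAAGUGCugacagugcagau
miR-17-5p: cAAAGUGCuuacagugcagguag
miR-20a-5p: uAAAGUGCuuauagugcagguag
miR-93-5p: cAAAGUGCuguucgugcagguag

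The 3′ UTRs annotated in GENCODE M21 (GRCm38) were searched for the match to this seed, GCACTTT. It was present in 4 of 36 tested collagen genes (11.1%), against 1869 of 12923 tested genes with a 3′ UTR (14.5%). The match followed by A was present in 2 of 36 (5.56%), against 4.43%. Among collagen genes not tested, Col17a1 had a match. The matches of the tested genes, in capitals within 23 bases of transcript sequence, were in 3 chains of type IV collagen and in Col26a1. Their positions are chr8:11448975-11448997 (plus strand) for Col4a2, chr1:82719683-82719705 (plus) for Col4a3, chr1:82452595-82452617 and chr1:82451543-82451565 (minus) for Col4a4, and chr5:136742697-136742719 (minus) for Col26a1.
Col4a2: gagatgataGCACTTTtttctat
Col4a3: actaaatgtGCACTTTatcccca
Col4a4, nearer the stop codon: ttaagccagGCACTTTaaataat
Col4a4, farther from it: cttttcagtGCACTTTagaataa
Col26a1: ccagctcagGCACTTTccctata
At day 3 the log2 difference between anti-miR-106b and scrambled was -0.01 for Col4a2, -0.51 for Col4a3, -0.43 for Col4a4 and 0.15 for Col26a1, and none of the 4 passed the test described below (adjusted p from limma 0.119 to 0.961). A match is a description of the sequence and not a shown binding site.

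Collagen genes took a small and changing share of the libraries. Reads of the 44 genes were 1.34, 1.35 and 1.37% of all reads in scrambled day 3, and 1.78, 1.95 and 1.81% in anti-miR-106b day 3. The groups did not overlap, with means of 1.35% ± 0.01 and 1.85% ± 0.09 (SD, n = 3). These shares use unscaled reads, while CPM and the tests below use scaled library sizes. The mean scaling factor was 1.12 in scrambled day 3 and 1.28 in anti-miR-106b day 3, so the gap at day 3 is smaller in CPM. At day 7 the shares were 0.386, 0.558 and 0.655% in scrambled and 0.458, 0.454 and 0.463% in anti-miR-106b, so every day 7 library was below every day 3 library and the 2 treatments overlapped. With mitochondrial genes and the 10 most abundant genes of each library removed from the total, the means were 1.69, 2.16, 0.734 and 0.623% in the same order of groups. Col1a1, Col1a2 and Col3a1, the chains of collagens I and III, made up 72.6 to 75.3% of collagen reads at day 3 and 62.4 to 65.5% at day 7. The part of collagen reads from basement membrane genes was 3.88 to 5.23% at day 3 and 11.2 to 12.7% in scrambled or 11 to 11.1% in anti-miR-106b at day 7. No collagen gene was among the 10 most abundant genes of any library.

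**Figure D1:**
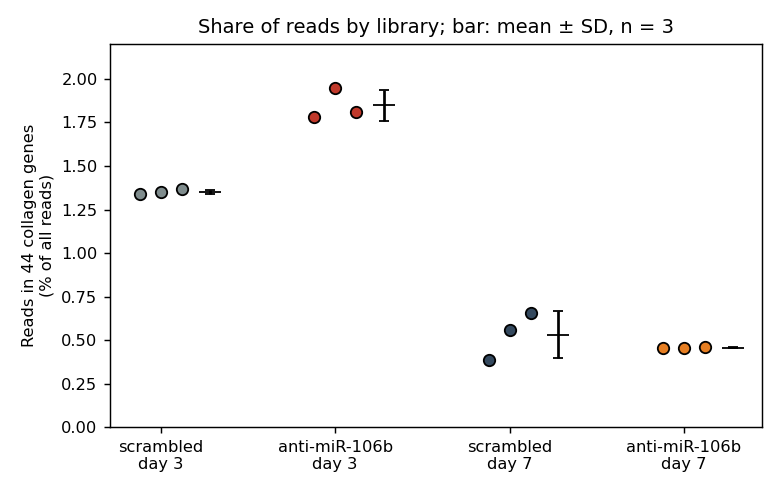
Reads in the 44 collagen genes as a percent of all reads (vertical axis) in each of the 12 libraries, by group. Points are libraries and bars show the mean ± SD (n = 3); the share was 1.35% and 1.85% at day 3 and 0.533% and 0.458% at day 7, with the widest spread in scrambled day 7.

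Levels of different genes were compared per kilobase of annotated exon. Col3a1 led in 3 groups, at 423 ± 24 CPM per kb in scrambled day 3, 190 ± 62 in scrambled day 7 and 165 ± 15 in anti-miR-106b day 7 (SD, n = 3). In anti-miR-106b day 3, Col1a1 stood at 492 ± 46 and Col3a1 at 465 ± 33 CPM per kb, neighbours that do not differ beyond their spread. Col1a2 and Col6a1 came next in every group, for example 189 ± 5 and 95.0 ± 2.0 CPM per kb in scrambled day 3. Length matters for this order: the exons of Col1a2 span 12.4 kb over all transcripts, but its longest protein-coding transcript has 5.35 kb. With that length Col1a2 passed Col1a1 in all 4 groups and Col3a1 led in all 4. At 1 CPM per kb or more stood 27, 26, 26 and 26 of the 44 genes (scrambled and anti-miR-106b day 3, then day 7). The lowest in scrambled day 3 was Col6a4, a chain of collagen VI, at 0.0233 ± 0.0009 CPM per kb.

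Col1a1 (chr11:94936224-94953042, GRCm38) and Col1a2 (chr6:4504814-4541544) encode the chains of collagen I, the main fibre-forming collagen. At day 3 Col1a1 stood at 2267, 2359 and 2342 CPM in scrambled and at 3136, 3568 and 2982 CPM in anti-miR-106b. All anti-miR-106b libraries lay above all scrambled ones, by 0.47 ± 0.12 on the log2 scale (SE; 1.39-fold; adjusted p = 0.00873, limma with Benjamini-Hochberg adjustment over 14063 genes). Col1a2 was at 2284, 2401 and 2362 CPM against 2929, 3132 and 2869 CPM, again without overlap (log2 difference 0.34 ± 0.10, adjusted p = 0.0217 in limma). Col3a1, the chain of collagen III, which mixes with collagen I in fibrils, did not follow them. Its levels were 3907, 4367 and 4192 CPM in scrambled and 4408, 4942 and 4356 CPM in anti-miR-106b, overlapping groups with a log2 difference of 0.14 ± 0.19 (adjusted p = 0.598, limma). With quantile normalization, which gives every library the same distribution of values, its difference was 0.71 and passed (adjusted p = 0.0143, limma).

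Of the 36 tested collagen genes, 7 were higher and 6 lower with anti-miR-106b at day 3. Over all tested genes 16.3% were higher and 19.4% lower, so the collagen genes were called at 19.4% and 16.7%, near the background. The median log2 difference was 0.09 in collagen genes and 0.01 in all genes. Of all calls 45.7% were higher, and 79.1% with total-count scaling, which moved the median of all genes by 0.19 and gave 12 higher collagen genes where 36.5% of all genes were higher. By family the calls were as follows. In the fibrillar family 3 of 9 were higher (Col1a1, Col1a2, Col5a1) and 1 lower (Col5a3). Of the microfibrillar genes 2 of 5 were lower (Col6a5, Col6a6), of the FACIT genes 1 of 3 was higher (Col16a1), and none of the 7 basement membrane genes passed in either direction, with 2 at an unadjusted p below 0.05. Among other collagens 3 of 12 were higher (Col8a1, Col8a2, Col27a1) and 3 lower (Col7a1, Col22a1, Col24a1).

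**Figure D2:**
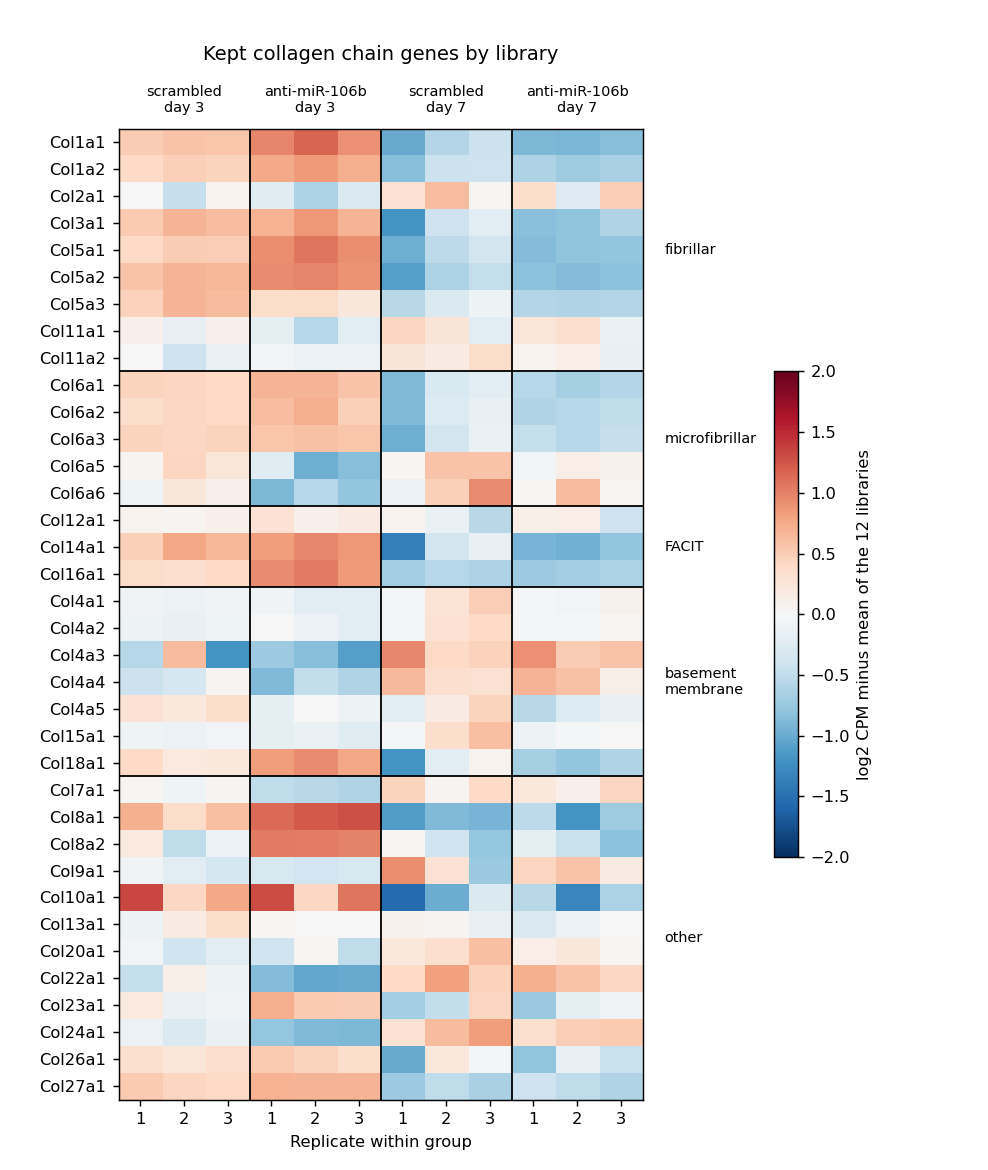
Log2 CPM of the 36 tested collagen genes (rows, by family) in the 12 libraries (columns, by group), each gene relative to its own mean over the libraries. Red is above and blue below that mean; genes of types I, III and V and Col6a1 to Col6a3 are red at day 3 and mostly blue at day 7, and scrambled day 7 replicate 1 was the lowest of its group in 26 of 36 genes.

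The 2 chains of collagen VIII, a short-chain collagen of vessel walls and other sheet-like matrices, had the largest positive differences. Col8a2 (chr4:126286793-126314330) was at 10.5, 6.44 and 8.47 CPM in scrambled day 3 and at 18.8, 18.7 and 18.1 CPM in anti-miR-106b day 3. The groups did not overlap and differed 2.23-fold (log2 1.16 ± 0.21, adjusted p = 0.000937, limma). Col8a1 was at 74.6, 58.9 and 68.9 CPM against 100, 106 and 112 CPM (log2 0.66 ± 0.14, adjusted p = 0.00274, limma). Col16a1, a FACIT collagen (chr4:130047840-130099283), had the smallest adjusted p of the collagen genes: 73.2, 72.0 and 75.0 CPM against 110, 117 and 102 CPM (log2 0.58 ± 0.06, adjusted p = 4.83e-05, limma). Col27a1, a fibrillar-like collagen best known from cartilage, had the smallest difference among those called, from 13.1, 12.3 and 12.1 CPM to 14.8, 14.7 and 14.7 CPM (log2 0.24 ± 0.08, adjusted p = 0.0426, limma).

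Collagen V, which seeds and limits the width of collagen I fibrils, had chains called in both directions. Col5a1 was at 301, 326 and 322 CPM in scrambled day 3 and at 436, 481 and 432 CPM in anti-miR-106b day 3 (log2 0.51 ± 0.12, adjusted p = 0.00441, limma). Col5a3 was at 201, 235 and 226 CPM against 189, 187 and 170 CPM, lower in all 3 anti-miR-106b libraries (log2 -0.27 ± 0.10, adjusted p = 0.0412, limma). Col5a2 was at 409, 442 and 437 CPM against 529, 546 and 516 CPM, without overlap, and missed the threshold (log2 0.31 ± 0.12, adjusted p = 0.0561, limma).

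The genes that were lower at day 3 include both minor chains of collagen VI that were tested. Col6a5 stood at 1.89, 2.45 and 2.15 CPM in scrambled and at 1.54, 0.928 and 1.01 CPM in anti-miR-106b (log2 -0.93 ± 0.21, adjusted p = 0.00471, limma). Col6a6 stood at 9.38, 11.7 and 10.7 CPM against 5.38, 6.70 and 5.80 CPM (log2 -0.83 ± 0.22, adjusted p = 0.0111, limma). The main chains of collagen VI, Col6a1, Col6a2 and Col6a3, had log2 differences of 0.22, 0.22 and 0.13 and did not pass (adjusted p 0.201, 0.249 and 0.50, limma).

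Col22a1, a collagen of the myotendinous junction (chr15:71795795-72034227), was at 30.2, 45.6 and 39.0 CPM in scrambled day 3 and at 22.9, 20.5 and 20.8 CPM in anti-miR-106b day 3. It was lower in every anti-miR-106b library, 1.77-fold by the mean (log2 -0.82 ± 0.14, adjusted p = 0.000686, limma). Col7a1, the collagen of anchoring fibrils (chr9:108953586-108984875), was at 30.4, 27.7 and 30.6 CPM against 20.7, 20.1 and 19.3 CPM (log2 -0.56 ± 0.10, adjusted p = 0.00125, limma). Col24a1, a fibrillar-like collagen (chr3:145292472-145552011), was at 10.7, 9.47 and 10.6 CPM against 6.79, 6.28 and 6.22 CPM (log2 -0.67 ± 0.12, adjusted p = 0.000798, limma). For all 3 the groups were separate.

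Some of these calls rest on few libraries. The call of Col1a2 was lost when scrambled day 3 replicate 1 or 3 was left out (adjusted p 0.0593 and 0.0600, limma), and likewise for replicate 2 of anti-miR-106b day 3 (0.0846). That of Col27a1 was lost without any day 3 library except scrambled replicate 1 (0.0895 to 0.138), and that of Col5a3 without any day 3 library except scrambled replicate 1 (adjusted p 0.0636 to 0.150) or without scrambled day 7 replicate 2 (0.0511). Col5a3 also lost its call with total-count scaling (log2 -0.08) and quantile normalization (-0.21). In the other direction, without scrambled day 7 replicate 1 the collagen genes higher at day 3 numbered 13, with Col5a2, Col6a1, Col6a2, Col14a1, Col18a1 and Col23a1 added. All 12 libraries enter the estimate of spread. Without scrambled day 7 replicate 3 they numbered 10, and with only the day 3 libraries in the fit 14. Over all genes the share higher was 19.1%, 18.2% and 27.3% in these 3 fits, against 16.3% with all libraries.

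**Figure D3:**
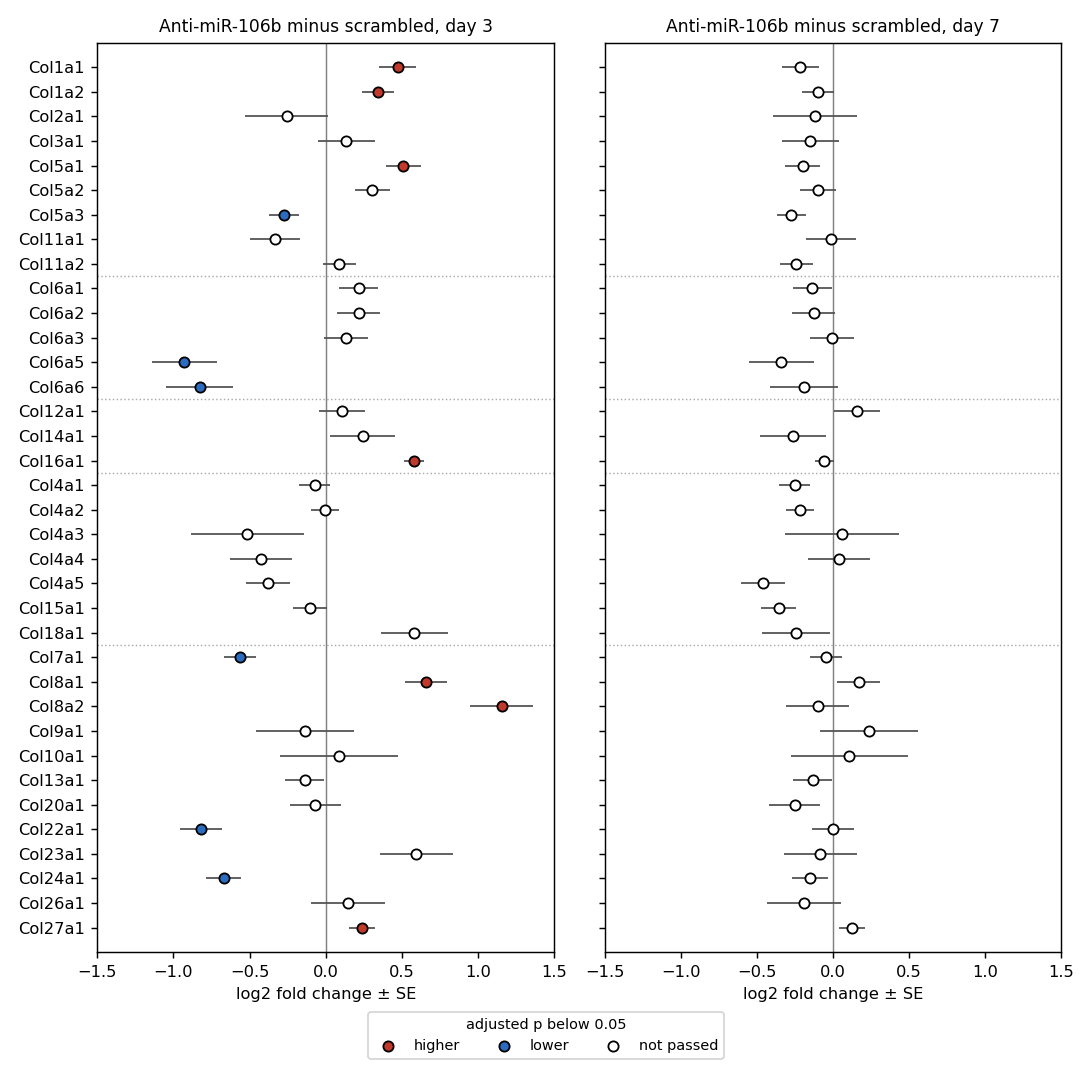
Log2 difference between anti-miR-106b and scrambled (horizontal axis, ± SE) for the 36 tested collagen genes at day 3 (left) and day 7 (right), with dotted lines between families. Filled points passed at an adjusted p below 0.05; 7 are red (higher) and 6 blue (lower) at day 3, none is filled at day 7, and 28 of 36 day 7 points lie below 0.

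Sequence just upstream of the start is shown for 4 genes that were called in opposite directions at day 3. Only called genes with a RefSeq upstream window that overlaps none of their own exons were considered. Of these, the 2 with the largest log2 difference each way were taken. Each stretch holds 120 bases, 5′ to 3′ on the gene's strand (GRCm38.p6, RefSeq), ending at the base before the annotated start. Capitals mark CCAAT and CANNTG on either strand, letters that match a CCAAT box and an E-box. Col8a1 (chr16:57754738-57754857, minus) and Col16a1 (chr4:130047720-130047839, plus) were higher. Col6a5 (chr9:105960644-105960763, minus) and Col24a1 (chr3:145292352-145292471, plus) were lower. The Col16a1 stretch overlaps an exon of the long noncoding gene Gm12963.
Col8a1: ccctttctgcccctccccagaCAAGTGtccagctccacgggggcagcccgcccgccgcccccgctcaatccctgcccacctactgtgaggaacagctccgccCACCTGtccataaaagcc
Col16a1: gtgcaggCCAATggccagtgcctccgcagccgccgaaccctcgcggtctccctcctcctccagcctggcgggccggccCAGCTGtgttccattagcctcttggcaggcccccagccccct
Col6a5: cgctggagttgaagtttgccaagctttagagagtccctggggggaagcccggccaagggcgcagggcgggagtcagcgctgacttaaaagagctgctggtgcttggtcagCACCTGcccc
Col24a1: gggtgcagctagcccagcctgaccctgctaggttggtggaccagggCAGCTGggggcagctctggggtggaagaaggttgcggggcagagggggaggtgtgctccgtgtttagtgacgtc
CANNTG was present in all 4 stretches and CCAAT only in that of Col16a1. In the full 250 bases upstream, CANNTG was present in 14 of 28 tested collagen genes with a window (50%), against 57.5% of 10645 tested genes. CCAAT was present in 32.1% against 36.0%, GGGCGG, the letters of a GC box, in 60.7% against 57.9%, CAGAC, the letters of a SMAD element, in 39.3% against 40.9%, and TATAAA in 4 of 28 (14.3%; Col3a1, Col10a1, Col11a2 and Col13a1) against 6.91%. All motifs were searched on both strands.

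At day 7 no collagen gene passed in either direction (limma). Over all genes the calls were 0.00711% higher and 0.0569% lower, so few genes of any kind passed. At an unadjusted p below 0.05, 797 genes were higher and 783 lower. Of the 36 collagen genes 28 had a negative and 8 a positive log2 difference, with a median of -0.13 against 0.01 over all genes, and 6 had an unadjusted p below 0.05, all of them negative. These were Col4a1, Col4a2, Col4a5, Col5a3, Col11a2 and Col15a1, and the groups were separate only for Col5a3 and Col11a2. Col15a1, whose product links the basement membrane to the interstitial matrix, was at 79.6, 103 and 123 CPM in scrambled and at 75.4, 78.1 and 81.2 CPM in anti-miR-106b (log2 -0.36 ± 0.11, adjusted p = 0.252, limma). Col4a5 was at 7.48, 9.68 and 11.8 CPM against 5.89, 7.09 and 7.79 CPM (log2 -0.46 ± 0.14, adjusted p = 0.251, limma). In both genes scrambled day 7 replicate 1 lay within the anti-miR-106b range, while replicates 2 and 3 lay above it.

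Without scrambled day 7 replicate 1, 13 collagen genes were lower with anti-miR-106b at day 7 and none was higher, in a fit that called 457 of 14063 genes (1.71% lower and 1.54% higher). They were Col1a1, Col3a1, Col5a1, Col5a2, Col5a3, Col6a1, Col6a2, Col14a1 and 4 basement membrane genes besides Col4a5: Col4a1, Col4a2, Col15a1 and Col18a1. The log2 differences ran from -0.63 (Col4a5, and Col14a1 with an adjusted p of 0.00503, limma) to -0.28 (Col5a2, 0.0403). Leaving out any other library gave 0 collagen calls at day 7. The count at day 7 thus rests on whether 1 of 3 scrambled animals is kept. That animal was singled out because its collagen values were low. Leaving it out therefore raises the scrambled mean of most of these genes by construction. In that library Col18a1 was at 16 CPM, against 31.7 and 38.5 CPM in the other scrambled day 7 libraries, and Col14a1 at 27.8 CPM against 55.5 and 64.2 CPM. The summed level of 11 fibroblast genes was 780 to 1010 CPM in scrambled day 7 and 805 to 884 CPM in anti-miR-106b day 7, overlapping ranges, and that of 9 endothelial genes was 298 to 324 CPM against 229 to 254 CPM. Their part in the collagen values was not tested.

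The change of the anti-miR-106b difference from day 3 to day 7 was tested as an interaction. It passed for 8 collagen genes: in 5 the difference was lower at day 7 than at day 3 and in 3 higher. Over all genes 9.07% became more negative and 13.2% more positive. Of all calls 59.3% were more positive, and 19.9% with total-count scaling, which moved the median of all genes by -0.22. The 5 were Col1a1 (log2 -0.69 ± 0.17, adjusted p = 0.0128, limma), Col1a2, Col5a1 (-0.71), Col8a2 (-1.26) and Col16a1 (-0.64), each higher with anti-miR-106b at day 3. The 3 were Col7a1 (0.51), Col22a1 (0.82) and Col24a1 (0.52), each lower at day 3. At day 7 their log2 differences lay between -0.22 and 0.00. Col22a1 shows the pattern: at day 7 it stood at 55.0, 74.2 and 57.8 CPM in scrambled and at 68.2, 62.2 and 55.7 CPM in anti-miR-106b, overlapping groups. For Col5a3 the difference was -0.27 at both days (interaction 0.00 ± 0.14, adjusted p = 0.997, limma).

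The interaction calls of Col1a1, Col5a1, Col8a2, Col16a1 and Col22a1 held in each of the 19 other settings that were run. That of Col1a2 (-0.44, adjusted p = 0.0474, limma) was lost without any library except scrambled day 7 replicate 1 (0.0618 to 0.115). Col7a1 lost its call in 5 of the 12 fits that left out a library (0.0503 to 0.0636) and Col24a1 in 7 (0.0602 to 0.0870). For Col7a1 these were scrambled day 3 replicate 3, anti-miR-106b day 3 replicates 2 and 3, scrambled day 7 replicate 2 and anti-miR-106b day 7 replicate 3. For Col24a1 they were scrambled day 3 replicates 1 and 3, anti-miR-106b day 3 replicates 2 and 3, scrambled day 7 replicate 2 and anti-miR-106b day 7 replicates 2 and 3. Both also lost it with total-count scaling (log2 0.30 each; adjusted p 0.148 and 0.232). Without scrambled day 7 replicate 1, 18 of 36 collagen genes had a more negative difference at day 7, in a fit where 14.9% of all genes did. Among those, Col8a1 passed there (-0.56, adjusted p = 0.0466, limma) and also without replicate 1 of anti-miR-106b day 7 (-0.63, 0.0278). The count of 18 follows in part from how the left-out library was picked.

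From day 3 to day 7, 6 of 9 fibrillar and 3 of 5 microfibrillar genes fell in each arm. In scrambled muscle 15 of 36 tested genes fell and 10 rose, against 35.3% and 32.9% of all genes. In anti-miR-106b muscle 18 fell and 10 rose, against 40.8% and 37.9%. The median log2 change of collagen genes was -0.25 in scrambled and -0.57 in anti-miR-106b, and that of all genes 0.00 and -0.02. Col1a1, Col1a2, Col3a1, Col5a1, Col5a2 and Col5a3 fell in both arms, as did Col6a1, Col6a2, Col6a3, Col14a1, Col16a1, Col18a1, Col8a1, Col10a1 and Col27a1. Anti-miR-106b added Col8a2, Col23a1 and Col26a1, of which Col8a2 alone passed the interaction test. Without scrambled day 7 replicate 3, Col23a1 (log2 -0.58, adjusted p = 0.00931, limma) and Col26a1 (-0.70, 0.0325) fell in scrambled too. Col26a1 also did so without scrambled day 7 replicate 2 (-0.81, 0.0103) or either of replicates 1 and 2 of anti-miR-106b day 7 (-0.57; 0.0468 and 0.0466). The same held for Col26a1 with 1 CPM added (-0.45, 0.0424), voom weights (-0.57, 0.0334) and a replicate block (-0.57, 0.0355). With total-count scaling Col8a2 (-0.66, 0.0130), Col23a1 (-0.65, 0.0357) and Col26a1 (-0.98, 0.00369) all fell in scrambled. That scaling moved the median of all genes in scrambled by -0.42.

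Col1a1 went from 2267 to 2359 CPM at day 3 to 791, 1058 and 1181 CPM at day 7 in scrambled, a log2 change of -1.22 ± 0.12 (2.33-fold lower, adjusted p = 1.19e-06, limma). In anti-miR-106b it went from 2982 to 3568 CPM to 851, 844 and 878 CPM, a change of -1.91 ± 0.12 (3.75-fold lower, adjusted p = 5.38e-09, limma). Col8a1 changed by -1.54 ± 0.14 and -2.03 ± 0.14, the second of these being 4.07-fold. Col14a1, a FACIT collagen of soft tissue, changed by -1.27 ± 0.22 and -1.78 ± 0.22. Col10a1, known from growth plate cartilage, was low: 0.839 to 1.60 CPM at day 3 and 0.218 to 0.515 CPM at day 7 over both arms. Its fall of 1.78 ± 0.38 and 1.76 ± 0.38 on the log2 scale therefore rests on 7 to 73 reads a library. Of the chondrocyte list, 2 of 7 genes reached the filter, and Matn1 and Cnmd had no read in at least 1 library. The summed level of the 7 genes was 11.3 to 14.9 CPM at day 3 and 7.52 to 10.4 CPM at day 7.

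The basement membrane family took the opposite course in scrambled muscle, where 5 of 7 rose and 1 fell. Col4a1 and Col4a2 encode the chains found in nearly all basement membranes. Col4a1 was at 282, 272 and 281 CPM at day 3 and at 293, 358 and 417 CPM at day 7 (log2 0.34 ± 0.10, adjusted p = 0.00887, limma). Col4a2 changed by 0.33 ± 0.09 and Col15a1 by 0.40 ± 0.11 (adjusted p 0.00622 and 0.00599, limma). In anti-miR-106b muscle the same 3 genes changed by 0.16, 0.11 and 0.15 and did not pass, though their interaction did not pass either (adjusted p 0.256 to 0.392, limma). Without scrambled day 7 replicate 1, Col4a1 passed in anti-miR-106b (0.16, adjusted p = 0.0462, limma), and the interaction passed for Col4a1 (-0.31, 0.0350), Col4a2 (-0.33, 0.0142) and Col15a1 (-0.42, 0.00622). Col4a3 and Col4a4, chains of the kidney and lung type of collagen IV, rose in both arms from low levels, Col4a4 from 1.23, 1.31 and 1.73 CPM to 2.6, 2.09 and 2.04 CPM in scrambled (log2 0.66 ± 0.20, adjusted p = 0.0107, limma). Col18a1, which carries the endostatin fragment, fell by 0.71 ± 0.22 and 1.53 ± 0.22.

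The rises of Col4a1, Col4a2 and Col15a1 are small and depend on how libraries are scaled. Those of Col4a3 (0.98 in scrambled and 1.55 in anti-miR-106b) and Col4a4 are larger and rest on 13 to 55 and 41 to 86 reads a library. In anti-miR-106b both passed in each of the 20 other settings that were run. In scrambled both lost their call with total-count scaling (0.57 and 0.25, adjusted p 0.172 and 0.288, limma). With total-count scaling, which moves the median of all genes by -0.42 in scrambled and -0.65 in anti-miR-106b, the scrambled change was -0.07 for Col4a1, -0.08 for Col4a2 and -0.01 for Col15a1, and only 1 collagen gene rose. With it 14.8% of all calls were rises, against 48.2% with the deposited scaling. In the anti-miR-106b arm the shares were 18.1% against 48.2%, and 4 collagen genes rose. There Col4a1, Col4a2 and Col15a1 fell with this scaling, by 0.46, 0.51 and 0.48. With quantile normalization rises were 60.7% and 57.4% of all calls, and the scrambled changes of Col4a1, Col4a2 and Col15a1 were 0.12, 0.10 and 0.26 and did not pass (adjusted p 0.364, 0.403 and 0.0714, limma). The call of Col4a3 in scrambled was lost without scrambled day 3 replicate 1 or 3 or scrambled day 7 replicate 1 (adjusted p 0.0905, 0.170 and 0.104, limma). Beside these changes, 8 of 9 endothelial genes rose in scrambled and 5 of 9 in anti-miR-106b, where 1 fell, their summed level going from 186 to 198 CPM to 298 to 324 CPM, and from 200 to 216 CPM to 229 to 254 CPM. Their part in the collagen values was not tested.

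Among the others, Col22a1, Col24a1, Col7a1 and Col20a1 rose in both arms. Col24a1 went from 9.47 to 10.7 CPM to 14.4, 18 and 20.8 CPM in scrambled (log2 0.78 ± 0.12) and from 6.22 to 6.79 CPM to 14.5, 16.3 and 16.6 CPM in anti-miR-106b (1.30 ± 0.12). Col22a1 changed by 0.71 ± 0.14 and 1.53 ± 0.14. With total-count scaling the scrambled change of Col24a1 was the only rise that still passed. Col7a1 changed by 0.30 ± 0.10 in scrambled, a call lost without scrambled day 3 replicate 2 or scrambled day 7 replicate 1 or 3 (adjusted p 0.0832, 0.0912 and 0.0720, limma) and a direction turned by total-count scaling (-0.11), and by 0.81 ± 0.10 in anti-miR-106b. Col20a1 changed by 0.60 ± 0.17 and 0.42 ± 0.17, and in anti-miR-106b its call was lost without day 3 replicate 1 or 3 or day 7 replicate 1 or 2 of that arm (adjusted p 0.0691 to 0.145, limma). Col11a2 passed in scrambled (0.44 ± 0.11) and not in anti-miR-106b (0.11 ± 0.11), with an interaction adjusted p of 0.141 in limma. Rises called in anti-miR-106b and not in scrambled were those of Col6a5 (0.74), Col6a6 (0.99), Col9a1 (0.74) and Col11a1 (0.47), and no interaction passed for these 4. Without scrambled day 7 replicate 1, Col6a6 rose in scrambled too (0.63, adjusted p = 0.00826, limma), and without replicate 3 of that group its interaction passed (0.89, 0.0342). With quantile normalization Col6a5 (0.56) and Col6a6 (0.63) rose in scrambled as well. With total-count scaling the anti-miR-106b changes of Col6a5 (0.12), Col6a6 (0.37) and Col9a1 (0.12) did not pass (adjusted p 0.608, 0.169 and 0.731, limma). The call of Col9a1, at 0.674 to 2.15 CPM in any library, was lost without any library except scrambled day 7 replicate 1 or 3 (adjusted p 0.0511 to 0.126, limma). That of Col11a1 was lost without replicate 2 of anti-miR-106b day 3 (0.0989), and without replicates 1 or 2 of that arm at day 7 (0.0616 and 0.0818), and its change was -0.16 with total-count scaling, as that of Col20a1 was -0.21.

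**Figure D4:**
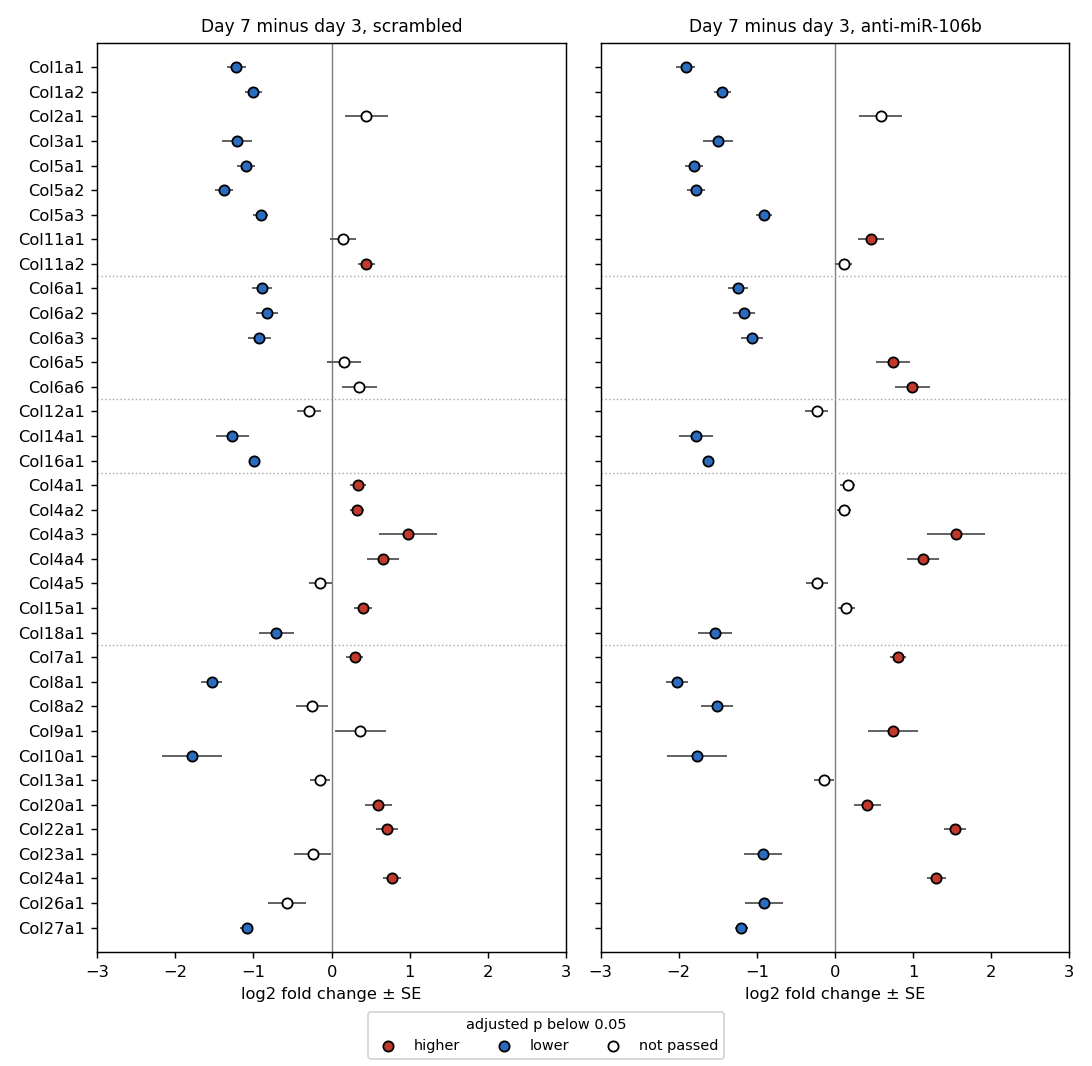
Log2 change from day 3 to day 7 (horizontal axis, ± SE) for the 36 tested collagen genes in scrambled (left) and anti-miR-106b (right) muscle, with dotted lines between families. Filled points passed at an adjusted p below 0.05; fibrillar genes of types I, III and V and the main type VI chains lie below 0 in both panels, by 0.83 to 1.37 in scrambled and 0.91 to 1.91 in anti-miR-106b.

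Genes that passed in none of the 5 comparisons with the deposited scaling and all libraries were Col2a1, Col4a5, Col12a1 and Col13a1. Col12a1, a FACIT collagen, stood at 77.3 to 80.6 CPM in scrambled day 3 and 80.2 to 91.7 CPM in anti-miR-106b day 3, then at 50.8 to 78.2 and 56.2 to 82.3 CPM. Its family members Col14a1 and Col16a1 fell while its own log2 changes were -0.29 ± 0.15 and -0.24 ± 0.15. Col12a1 did fall in scrambled without scrambled day 7 replicate 1 (-0.43, adjusted p = 0.0216, limma) or anti-miR-106b day 7 replicate 3 (-0.29, 0.0480), and in both arms with total-count scaling (-0.70 and -0.86) and quantile normalization (-0.41 and -0.44). Col4a5 was lower with anti-miR-106b at day 3 (-0.38) without scrambled day 7 replicate 1 or 3 (0.0164 and 0.0245) or replicate 1 of anti-miR-106b day 7 (0.0446). It also was so with 1 CPM added (-0.34), quantile normalization (-0.44) and voom weights (-0.38). Col2a1 rose in anti-miR-106b without its day 7 replicate 2 (0.81, 0.0183) or with voom weights (0.60, 0.0484). With quantile normalization Col2a1 rose in both arms (1.34 and 1.25) and Col13a1 in anti-miR-106b (0.37). With total-count scaling Col4a5 (-0.55 and -0.85) and Col13a1 (-0.55 and -0.77) fell in both arms.

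A ratio of chains within a library is not altered by the scaling of that library. They are given as a description, since the pairs were chosen with these data known. Col5a1 over Col5a3 was 0.58, 0.47 and 0.51 on the log2 scale in scrambled day 3 and 1.21, 1.36 and 1.34 in anti-miR-106b day 3, a ratio of 1.43 against 2.47. At day 7 it was 0.22 to 0.41 in scrambled and 0.36 to 0.45 in anti-miR-106b, so anti-miR-106b day 3 stood apart from the 3 other groups. Col3a1 over Col1a1 was 0.79, 0.89 and 0.84 in scrambled day 3 and 0.49, 0.47 and 0.55 in anti-miR-106b day 3, again without overlap. At day 7 the ratio was 0.59, 0.95 and 1.00 in scrambled and 0.83, 0.88 and 1.03 in anti-miR-106b. Col15a1 over Col18a1 was 0.79 ± 0.12 and 0.10 ± 0.04 at day 3 and 1.90 ± 0.36 and 1.78 ± 0.09 at day 7 (SD, n = 3).

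Ratios of chains that assemble together ranged from steady to shifting. Col1a1 over Col1a2 had group means of -0.02, 0.11, -0.24 and -0.35 on the log2 scale, and Col5a1 over Col5a2 had -0.44, -0.24, -0.16 and -0.26. Col4a1 over Col4a2 had group means of 0.55, 0.49, 0.57 and 0.53 on the log2 scale. These genes lie head to head on chromosome 8, and their annotated transcripts share 22 bases at the start (chr8:11312805-11312826) on opposite strands. Col6a1 over Col6a2 had means of -0.01, -0.01, -0.08 and -0.09. Col6a6 over Col6a1, in contrast, went from -5.30 ± 0.18 in scrambled day 3 to -6.35 ± 0.16 in anti-miR-106b day 3, and stood at -4.05 ± 0.23 and -4.11 ± 0.39 at day 7. Col1a1 over Col4a1, a fibrillar chain against a basement membrane chain, was 3.06 ± 0.06 and 3.60 ± 0.17 at day 3 and 1.5 ± 0.06 and 1.54 ± 0.04 at day 7.

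**Figure D5:**
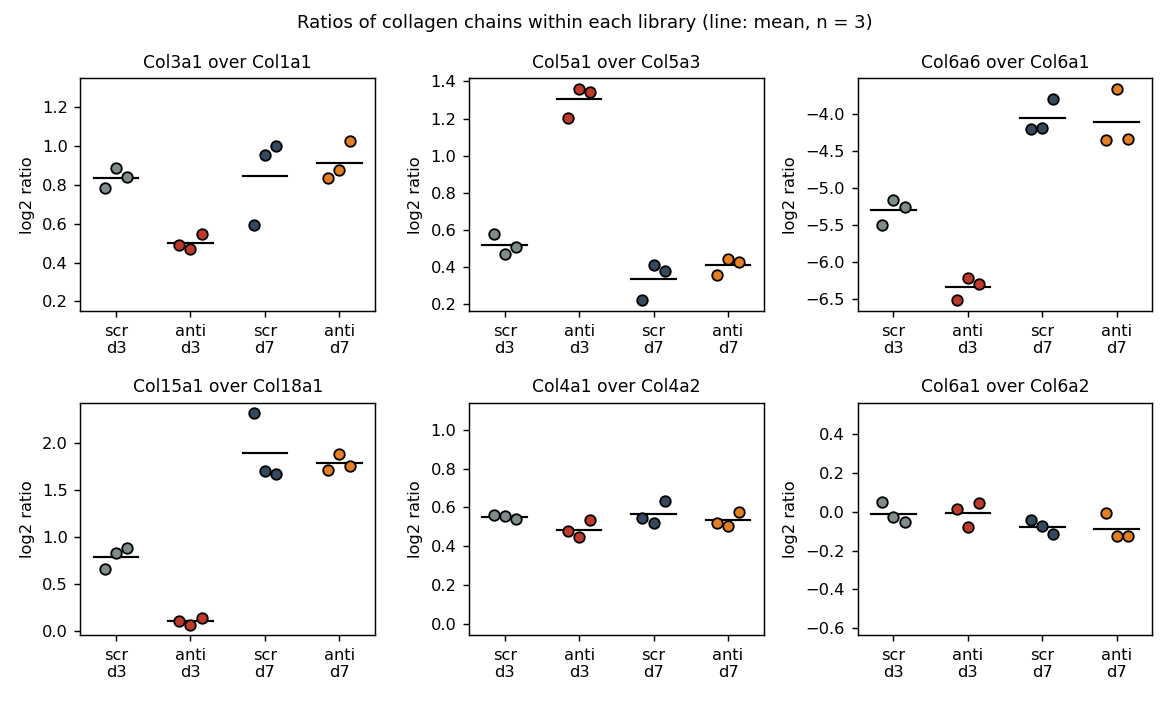
Log2 ratio of 6 pairs of collagen genes (vertical axes) in each library by group (scr, scrambled; anti, anti-miR-106b; d3 and d7, day 3 and day 7), with points for libraries and lines for the mean of 3. Col5a1 over Col5a3 is 1.30 in anti-miR-106b day 3 and 0.34 to 0.52 in the other groups, while Col4a1 over Col4a2 stays between 0.49 and 0.57.

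Partner genes of collagen synthesis were counted by role, and up to 4 a list are named by the smallest p in any comparison. Of 20 enzymes and chaperones that fold and modify collagen chains, 13 were higher and 1 (Colgalt2) lower with anti-miR-106b at day 3, with a median log2 difference of 0.38 against 0.01 over all genes. Fkbp10, a chaperone of procollagen, was at 5.79, 5.63 and 5.62 log2 CPM in scrambled and 6.56, 6.55 and 6.43 in anti-miR-106b (difference 0.83 ± 0.11, adjusted p = 0.000208, limma). Ppib (0.62), P4ha3 (0.63) and Plod2 (0.49), enzymes that isomerise or hydroxylate prolines and lysines, were higher too. Of 13 tested genes that trim and crosslink procollagen 4 were higher and none lower, among them the lysyl oxidases Lox (0.62 ± 0.09), Loxl1 (0.52 ± 0.11) and Loxl3 (0.86 ± 0.09). Adamts14, which trims procollagen ends, had 0.31 ± 0.15 and did not pass. Of 17 genes that regulate fibrils 8 were higher and 1 (Tnxb) lower, with Postn at 0.82 ± 0.08, Bgn at 0.68 ± 0.12, Aspn at 0.55 ± 0.09 and Thbs2 at 0.40 ± 0.10.

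Of 12 basement membrane partners none was higher and 2 were lower at day 3, the laminin chains Lama2 (-0.37 ± 0.10) and Lamb2 (-0.34 ± 0.10). Sparcl1 and Lama4, also picked by the rule, did not pass at day 3. Of 11 tested collagen receptors 3 were higher, including Mrc2, which takes up collagen for degradation (0.54 ± 0.07), and Adgrg1, an adhesion receptor of collagen III (0.75 ± 0.08). Lair1 and Itga1 were also picked by the rule, and their values are not given here. Of 12 genes of collagen degradation 3 were higher (Mmp14, Ctsl and the inhibitor Timp2, 0.46, 0.24 and 0.24) and 3 lower (Mmp13, Timp3 and Timp4, -0.92, -0.50 and -0.81). For comparison, 16.3% of all genes were higher and 19.4% lower at day 3. At day 7 no gene of these 6 lists passed. From day 3 to day 7 in scrambled muscle, 15 of 20 modifying enzymes, 9 of 13 processing genes and 12 of 17 fibril regulators fell, and in anti-miR-106b the counts were again 15, 9 and 12, against 35.3% and 40.8% of all genes that fell in these arms. Colgalt2, Tnxb, Mmp13 and Timp3 fall outside the rule and are named because each belongs to a small count, a choice made after their values were seen.

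Markers of the cells that could carry these collagens moved as follows. At day 3 the summed level of 11 fibroblast genes was 1067 to 1207 CPM in scrambled and 1064 to 1114 CPM in anti-miR-106b, with 1 gene higher and 2 lower. That of 7 tenocyte genes was 591 to 756 CPM and 756 to 831 CPM, with 2 higher. Macrophage genes (8) summed to 2941 to 3025 CPM and 4083 to 4478 CPM, with 4 higher. Myofibre genes (8) summed to 89370 to 105730 CPM and 59186 to 64154 CPM, with 7 lower and 1 positive (log2 0.56) but not passing. Regenerating fibre genes (6) summed to 1414 to 1844 CPM and 2494 to 2744 CPM, with 2 higher. Endothelial genes (9) summed to 186 to 198 CPM and 200 to 216 CPM, with 2 higher. Over all genes 16.3% were higher and 19.4% lower. Pericyte and smooth muscle genes (8) summed to 5826 to 6214 CPM and 5384 to 5840 CPM, with 2 higher and 1 lower. That list includes Des, which muscle fibres also express, so its sum does not measure pericytes and smooth muscle alone. Schwann cell genes (7, Sox10 below the filter) summed to 83.2 to 94.8 CPM and 79.8 to 86.1 CPM, with 1 lower. Of 3 epidermal genes in the table Krt5 and Lor had no read in at least 1 library, and the sum was at most 4.11 CPM in any library. The part of these differences in the collagen values was not tested.

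The 8 collagen genes below the filter were Col4a6, Col6a4, Col9a2, Col9a3, Col17a1, Col19a1, Col25a1 and Col28a1, with 0 to 40 reads in a library. Just outside it Col17a1 reached 0.692 CPM in its third-highest library, and just inside it Col2a1 reached 1.04 CPM. Col9a3, a cartilage collagen, had 22, 10 and 24 reads in scrambled day 3, 34, 40 and 18 in anti-miR-106b day 3, 4, 10 and 9 in scrambled day 7 and 9, 2 and 4 in anti-miR-106b day 7. Its exons share 6.07% of their bases with Tcfl5 on the other strand. Col9a2, a chain of the same collagen IX, had 11, 7 and 7 reads in scrambled day 3, 22, 12 and 8 in anti-miR-106b day 3, 11, 12 and 7 in scrambled day 7 and 7, 7 and 4 in anti-miR-106b day 7. Col25a1, a membrane collagen, had 14, 14 and 13 reads in scrambled day 3, 11, 13 and 16 in anti-miR-106b day 3, 6, 2 and 6 in scrambled day 7 and 4, 3 and 6 in anti-miR-106b day 7. For Col25a1 every day 3 library was above every day 7 library, in reads and in CPM. For Col9a3 the lowest day 3 library equalled the highest day 7 library in reads, and in CPM the days overlapped. For Col9a2 the days overlapped.

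Col6a4 had 7, 7 and 7 reads in scrambled day 3, 7, 10 and 9 in anti-miR-106b day 3, 2, 2 and 5 in scrambled day 7 and 3, 0 and 0 in anti-miR-106b day 7. In anti-miR-106b day 7 replicates 2 and 3 a count of 0 allows up to 3 reads, 0.107 and 0.0998 CPM. Col4a6, a minor chain of collagen IV, had 13, 10 and 9 reads in scrambled day 3, 8, 15 and 6 in anti-miR-106b day 3, 7, 10 and 7 in scrambled day 7 and 5, 6 and 7 in anti-miR-106b day 7. For Col6a4 the days were separate in reads but not in CPM. Anti-miR-106b day 3 replicate 1 had 0.156 CPM and scrambled day 7 replicate 3 had 0.166 CPM. For Col4a6 the days overlapped. Col17a1, the transmembrane collagen of hemidesmosomes, had 22, 30 and 24 reads in scrambled day 3, 32, 32 and 26 in anti-miR-106b day 3, 19, 12 and 20 in scrambled day 7 and 15, 11 and 16 in anti-miR-106b day 7. Col19a1 had 20, 36 and 19 reads in scrambled day 3, 22, 18 and 29 in anti-miR-106b day 3, 14, 15 and 17 in scrambled day 7 and 21, 8 and 12 in anti-miR-106b day 7. Col28a1, a collagen of peripheral nerve, had 6, 6 and 5 reads in scrambled day 3, 11, 7 and 8 in anti-miR-106b day 3, 11, 6 and 5 in scrambled day 7 and 6, 2 and 8 in anti-miR-106b day 7. Counts this small carry a wide counting error, and no fold is given for the 8 genes.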

How the data were processed

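Bulk RNA-seq of 12 libraries (4 groups of 3) was analysed from the deposited table of log2 CPM for 28116 gene symbols. Per the labels' protocols, RNA was extracted with Direct-zol and libraries were made with a TruSeq RNA kit. The submitters' processing notes name STAR and featureCounts, the build mm10 (GRCm38), limma 3.34.9 with edgeR 3.20.9, and Trim Galore 0.4.3.1 with FastQC 0.72; strand is not given in the sources used here. After removing the logarithm, whole reads were recovered (tolerance 0.001 of a read); the authors' library sizes had been scaled by factors of 0.803 to 1.32.

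The deposited log2 CPM were fitted in limma 3.58.1 (R 4.3.3) with a mean per group, all 12 libraries, trended variance moderation (8 residual and 5.59 prior degrees of freedom) and 5 two-sided contrasts. Genes with at least 1 CPM in at least 3 libraries were kept (14063), with Benjamini-Hochberg adjustment over them and a threshold of 0.05. A change of 1 read is the limit of precision for low genes. The 3 animals of a group are replicates, and an exact permutation test of 3 against 3 cannot go below p = 0.1. The same fit was tested on simulated counts.

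Every gene with a collagen chain symbol is accounted for. The members and the lists of partner and marker genes were chosen with earlier results of these data known. Exon lengths, 3′ UTRs and overlaps came from GENCODE M21, and miRNA and upstream sequences from RefSeq (GRCm38.p6). Alternatives were other filters, 1 CPM added, total-count and quantile scaling, voom weights, fits of the compared groups only, a replicate block, and leaving out each library. The transcript length used as an alternative was chosen after seeing the data.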

Additional observations from a re-analysis of the deposited data

Results flagged for a closer look

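For 8 collagen genes the log2 difference between anti-miR-106b and scrambled muscle differed between day 7 and day 3 by the interaction test in limma (adjusted p over all tested genes). The difference at day 7 minus that at day 3 was negative for 5 genes: Col1a1 with -0.69 (adjusted p = 0.0128), Col1a2 with -0.44 (0.0474), Col5a1 with -0.71 (0.00922), Col8a2 with -1.26 (0.00928) and Col16a1 with -0.64 (0.000942). It was positive for 3: Col7a1 with 0.51 (0.0245), Col22a1 with 0.82 (0.0107) and Col24a1 with 0.52 (0.0375). Groups of 3 libraries were too small for a test of single outlying libraries.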

How the results depend on the processing

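Over the alternatives, 3349 of the single-gene results kept their side of the threshold, 110 newly passed, 88 no longer passed and 12 reversed. A result counted as reversed only if it passed in the main fit or in the alternative. Changes of direction that passed in neither are among the 3349. At day 3 the 7 higher collagen genes became 12 with total-count scaling, 11 with quantile normalization, 14 with only the groups compared and 5 to 13 when a library was left out. At day 7 the 0 lower genes became 0 to 13 when a library was left out, 13 only without scrambled day 7 replicate 1. The 3 positive interactions became 1 with total-count scaling and 1 to 4 without a library. They were 1 in 5 such fits, those without replicate 3 of scrambled day 3, replicates 2 and 3 of anti-miR-106b day 3, replicate 2 of scrambled day 7, and replicate 3 of anti-miR-106b day 7. The 5 negative interactions became 11 with total-count scaling, 8 with quantile normalization, and 4 to 18 without a library. With total-count scaling the 10 rises over time became 1 in scrambled and 4 in anti-miR-106b. The shares of reads became 1.69, 2.16, 0.734 and 0.623% with the smaller total.

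Reversed with total-count scaling were Col4a1 (-0.069), Col4a2 (-0.083), Col7a1 (-0.11) and Col15a1 (-0.0060) over time in scrambled, and Col4a1 (-0.46), Col4a2 (-0.51), Col11a1 (-0.16), Col11a2 (-0.51), Col15a1 (-0.48) and Col20a1 (-0.21) in anti-miR-106b. With quantile normalization Col4a2 (-0.23) and Col13a1 (0.37) reversed there. Total-count scaling shifted the median of all genes by 0.19, -0.03, -0.22, -0.42 and -0.65 in the 5 comparisons, and that shift enters each of its values. Other causes were not tested. At day 7 the share of higher calls was 11.1% of 9, against 24.1% of 29 with total-count scaling and 35.3% of 17 with quantile normalization.

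Deviations from the group mean were compared between libraries of different groups. Same-numbered libraries had correlations of -0.18 to 0.18 (median 0.03, 18 pairs). Differently numbered ones had -0.22 to 0.24 (median -0.02, 36 pairs). No clear pairing by number was seen, but groups of 3 libraries cannot exclude a weak one. With a replicate block the collagen counts higher and lower were 7 and 7, 0 and 0, 3 and 4, 10 and 16, and 9 and 18. The block ended the calls of Col27a1 at day 3 (adjusted p = 0.0573, limma), Col1a2 in the interaction (0.0574) and Col20a1 over time in anti-miR-106b (0.0522), and added Col4a5 (0.0266) and Col5a2 (0.0485) at day 3 and Col26a1 over time in scrambled (0.0355). Depth limits the 8 genes below the filter. It also limits Col2a1, Col4a3, Col4a4, Col6a5, Col9a1 and Col10a1, which had at most 96 reads in any library.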
